A study of Mus musculus with 8 samples.

Results

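The subject of this section is a set of 8 genes that encode transcription factors of the erythroid and megakaryocyte lineages, measured in hematopoietic stem and progenitor cells of mice. The members were taken by name: Gata1, Klf1, Zfpm1, Nfe2, Gfi1b, Sox6, Bcl11a and Myb. They are 8 of the 20643 genes to which an array probe could be matched, and all 8 had a probe. Bcl11a and Zfpm1 had 2 probes each, and the brighter probe was read. Levels are log2 signal relative to the 75th percentile of signal on the same array, so a value of 0 lies at that percentile. Of the 64 member values, 61 were marked by the scanner software as well above background, and the 3 exceptions all belong to Sox6.

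RNA came from bone marrow LSK cells, the fraction without lineage markers that carries c-Kit and Sca-1, and each of 8 groups was read on 1 array, so no group has a replicate. Per the labels, CD45.2 stem cells of C57BL/6 background carried Cre-ERT with either wild-type or floxed Ezh2, received RUNX1S291fs or an empty retrovirus, and were transplanted into lethally irradiated mice beside CD45.1 wild-type marrow, after which Ezh2 was deleted. Ezh2 encodes the catalytic subunit of Polycomb repressive complex 2, and RUNX1S291fs is a frameshift mutant of the blood transcription factor RUNX1. At month 4 after transplantation the CD45.2 groups were WT (empty vector, Ezh2 intact), Ezh2-deleted (empty vector, Ezh2Δ/Δ), RUNX1-mutant (RUNX1S291fs, Ezh2 intact) and double-mutant (RUNX1S291fs with Ezh2Δ/Δ), each pooled from 2 to 4 mice. The MDS and MDS/ML arrays hold double-mutant CD45.2 cells of 1 moribund mouse each, labelled as having myelodysplastic syndrome (MDS) or MDS together with myeloid leukemia (MDS/ML). CD45.1-R and CD45.1-D are wild-type CD45.1 competitor cells taken at month 4 from RUNX1-mutant and double-mutant recipients, without the vector or the deletion. All CD45.2 groups carry the retrovirus and Cre-ERT, and the promoter driving RUNX1S291fs and the ages of the moribund mice are not stated in the sources used here.

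GATA1 is the DNA-binding factor on which both red cell and megakaryocyte formation depend, and FOG1, the product of Zfpm1, binds GATA1 and is needed for much of its action. GFI1B is a repressor of the same lineages, NFE2 drives platelet release, and KLF1 directs red cell genes such as the adult beta globin. SOX6 and BCL11A silence embryonic globins in red cells, BCL11A is also required for B cell development, and MYB sustains progenitors of several lineages and holds back megakaryocyte formation.

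The scanner software marked 43.9% (CD45.1-R) to 55.3% (WT) of probes as well above background and 0 as saturated, and the number of arrays limits the precision. Kit read 4.06 to 5.11 over the 8 arrays. Ly6a, which encodes the Sca-1 sort marker, read 3.17 to 4.14 on the month 4 arrays but 0.53 (MDS) and 1.18 (MDS/ML) on the moribund arrays, so at the RNA level the Sca-1 part of the label is weaker there. Ezh2 read 3.10 to 3.51 on the 4 deleted arrays and 3.40 to 4.01 on the others, which overlap, and whether the probe lies in the deleted exons is not given. Xist was dim (-5.79 and -5.95) and the Y-linked Eif2s3y bright (2.71 and 3.22) on the Ezh2-deleted and MDS/ML arrays alone, so these carry RNA of male cells and the other 6 of female cells. Because LSK cells were measured in bulk, fewer cells of a type and less RNA per cell cannot be told apart for any member.

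The largest fitted effect among the 8 factors was on Sox6, which rose with moribund stage, and Zfpm1, Gfi1b and Nfe2 also had their 2 highest levels on the moribund arrays. Bcl11a had its 2 lowest levels there on the probe read, although a second probe did not separate them, and Klf1 stood out only on the double-mutant array of month 4. The levels of Gata1 and Myb were not separated by either lesion or by stage. Effects were fitted with limma over all 8 arrays, with terms for Ezh2 deletion (4 arrays), RUNX1S291fs (4 arrays) and moribund stage (2 arrays). Its spread is estimated from the 2 moribund arrays, from the 3 wild-type ones and from how far the lesions depart from adding up. The wild-type ones include CD45.1-R and CD45.1-D, competitor cells of other donor marrow without the vector. Differences by vector or donor therefore enter the lesion effects and the SD of the wild-type arrays and cannot be told apart from them. P-values were adjusted by the Benjamini-Hochberg method over 13548 genes. Of the 8 members, 1 passed an adjusted p of 0.05 for stage, where 1.85% of all genes tested did (37 higher and 213 lower) and 1856 genes had an unadjusted p under 0.05 in limma.

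**Figure D1:**
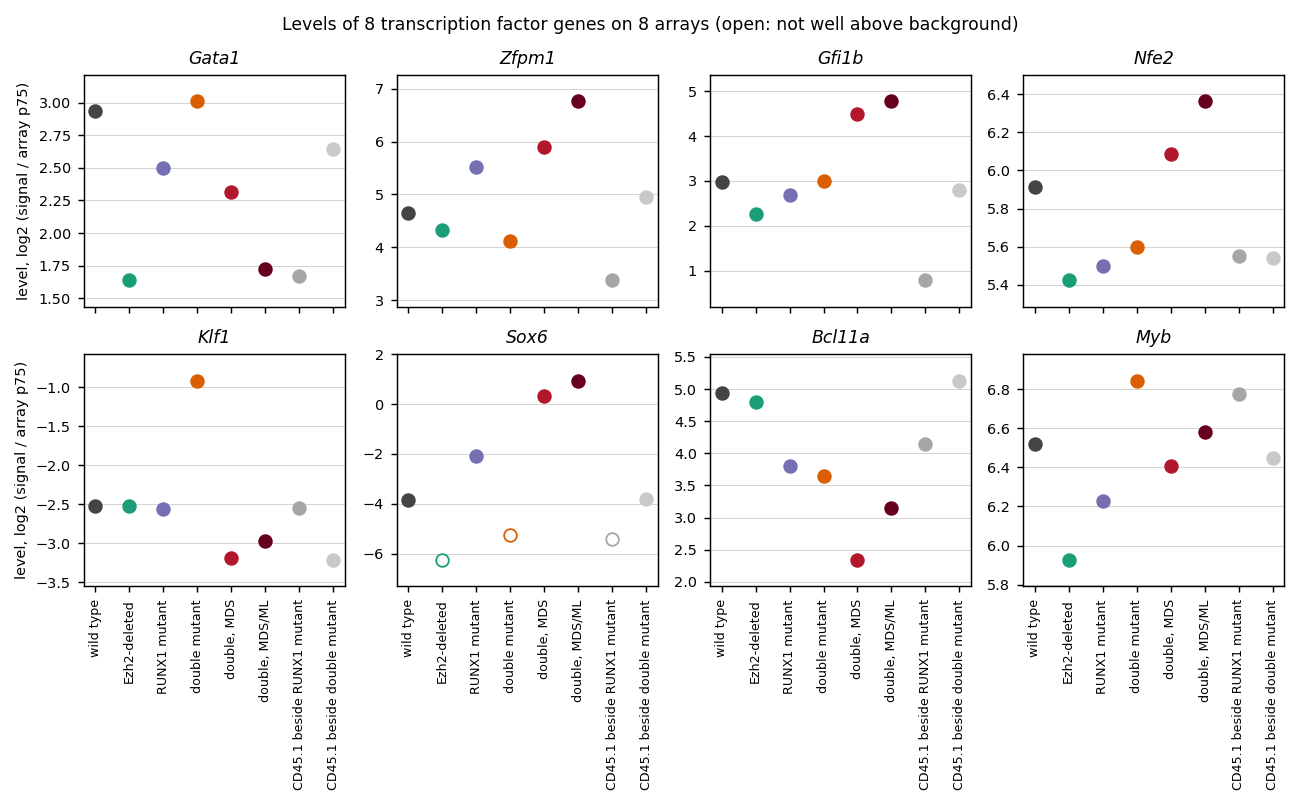
Level of each of the 8 transcription factor genes (y axis, log2 signal relative to the 75th percentile of the array; scales differ between panels) on the 8 arrays (x axis), 1 point per array with no replicates. Open points were not well above background; Sox6, Gfi1b, Zfpm1 and Nfe2 have their 2 highest points on the MDS and MDS/ML arrays, and Bcl11a, on the probe read, its 2 lowest, which a second probe did not separate.

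Sox6 encodes an SRY-related factor that works with BCL11A on the globin genes and promotes red cell maturation. Its level was -3.83 on the WT array, -6.24 on Ezh2-deleted, -2.07 on RUNX1-mutant, -5.27 on double-mutant, 0.32 on MDS, 0.93 on MDS/ML, -5.40 on CD45.1-R and -3.82 on CD45.1-D. The values on Ezh2-deleted, double-mutant and CD45.1-R were not well above background, and both moribund arrays stood above all 6 month 4 arrays, the nearest of which was RUNX1-mutant. Against the double-mutant array, whose value is only a bound, Sox6 was at least 32.8-fold higher on MDS and at least 50.2-fold higher on MDS/ML, and the first of these comparisons lies within a slide. The stage effect was 5.50 ± 0.70 (SE, log2) with a limma adjusted p of 0.0162, but it uses the 3 dim values as measured and is no exact size. With each dim value raised to the detection bound of its array, a setting added after the data were seen, it was 4.74 ± 0.57 (adjusted p = 0.0147). With slide as a block the effect was 5.20 and the adjusted p 0.100, with quantile normalization 5.39 and 0.0635, and with normexp background correction, which compresses low signals, 2.75 and 0.0115. Without the double-mutant array the adjusted p was 0.218, and without the WT array 0.0507, so the call rests on these arrays.

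Before disease, Sox6 was 3.39-fold higher on the RUNX1-mutant array than on WT, and at least 3.28-fold higher than in the CD45.1-R cells from RUNX1-mutant recipients. On the double-mutant array it was at least 6.25-fold lower than on the RUNX1-mutant array. The fitted effects on Sox6 were 1.76 ± 0.57 for RUNX1S291fs (limma adjusted p = 0.566) and -2.41 ± 0.57 for Ezh2 deletion, neither of which passed, and both rest partly on values not well above background. Sox5, a paralog of Sox6 of the same SoxD group, read 5.76 to 6.46 on the month 4 arrays and 7.10 (MDS) and 6.51 (MDS/ML) on the moribund arrays, with a stage effect of 0.59 (adjusted p = 0.640).

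Zfpm1 read 4.66 on WT, 4.33 on Ezh2-deleted, 5.52 on RUNX1-mutant, 4.12 on double-mutant, 5.89 on MDS, 6.76 on MDS/ML, 3.38 on CD45.1-R and 4.95 on CD45.1-D. The moribund arrays were the 2 highest and CD45.1-R the lowest, but the step from MDS down to RUNX1-mutant, 0.37, was smaller than the SD of the 3 wild-type arrays, 0.84. Zfpm1 was 3.42-fold (MDS) and 6.24-fold (MDS/ML) higher than on the double-mutant array. The stage effect of 1.79 ± 0.70 did not pass (limma adjusted p = 0.319). On the RUNX1-mutant array Zfpm1 was 4.40-fold higher than in CD45.1-R cells, which lay 2.42-fold below WT, and 1.82-fold higher than on WT. On the double-mutant array Zfpm1 was 2.65-fold lower than on the RUNX1-mutant array. The second Zfpm1 probe differed from the first by at most 0.12 on any array.

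Gfi1b read 2.97 on WT, 2.27 on Ezh2-deleted, 2.68 on RUNX1-mutant, 3.01 on double-mutant, 4.50 on MDS, 4.77 on MDS/ML, 0.79 on CD45.1-R and 2.79 on CD45.1-D. Both moribund arrays were higher than every month 4 array, and the step from MDS down to double-mutant exceeded the wild-type SD of 1.21. Against the double-mutant array the difference was 2.82-fold on MDS and 3.41-fold on MDS/ML. The stage effect was 1.70 ± 0.77 with a limma adjusted p of 0.398, so it did not pass. Gfi1b also varied between wild-type arrays: the CD45.1-R level was 4.53-fold below WT and 4.01-fold below CD45.1-D.

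Gfi1, the paralog of Gfi1b that acts in neutrophil and stem cells, had its lowest levels where Gfi1b had its highest. It read 4.05 on WT, 2.66 on Ezh2-deleted, 2.19 on RUNX1-mutant, 5.72 on double-mutant, -0.86 on MDS, -1.88 on MDS/ML, 4.49 on CD45.1-R and 3.73 on CD45.1-D. Both moribund arrays lay below every month 4 array, and the stage effect was -5.60 ± 1.21 (limma adjusted p = 0.0818). All 15 neutrophil markers tested had a negative stage effect, with a median of -4.27 and 0 past the threshold. The 2 moribund arrays differed in these markers. At least 2-fold from WT, 11 were higher and 1 lower on MDS, and 0 higher and 11 lower on MDS/ML. At least 2-fold from double-mutant, 0 were higher and 7 lower on MDS, and 0 higher and 15 lower on MDS/ML. Their summed signal, in units of the 75th percentile of the array, was 96.5 on MDS/ML and 1247 on MDS against 563 to 5323 on the month 4 arrays. Its part in the Gfi1 level was not tested.

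Nfe2, which encodes the larger subunit of the NF-E2 factor, had a narrow range. It read 5.91 on WT, 5.42 on Ezh2-deleted, 5.50 on RUNX1-mutant, 5.60 on double-mutant, 6.09 on MDS, 6.36 on MDS/ML, 5.55 on CD45.1-R and 5.54 on CD45.1-D. The moribund arrays were highest again, but MDS exceeded WT by 0.17, less than the wild-type SD of 0.21, and the whole range was 1.92-fold. The stage effect was 0.73 ± 0.35 (limma adjusted p = 0.431). The paralog Nfe2l2, known for the response to oxidative stress, read 3.44 and 3.66 on the moribund arrays, within its month 4 range of 2.66 to 4.05.

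In all, the levels of 5 members on the moribund arrays did not overlap those of month 4, with Zfpm1, Nfe2, Gfi1b and Sox6 higher and Bcl11a, on the probe read, lower. Over all genes tested this held for 27.4%, so with 2 arrays against 6 such separation is common in these data. The moribund arrays came from single mice and the CD45.2 arrays of month 4 from pools, while for the CD45.1 arrays no pooling is stated. Stage cannot be told apart from the difference between single mice and pools.

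The summed signal of the megakaryocyte genes that GATA1, FOG1 and NF-E2 act on was higher on the moribund arrays. Of 27 listed genes, 25 were tested and 23 had a positive stage effect, with a median of 2.09 against -0.13 over all genes tested. Of these, 2 passed and rose: Clec1b, which encodes the platelet receptor CLEC-2, by 5.80 ± 0.69 (limma adjusted p = 0.0154), and Gp6, the platelet collagen receptor, by 4.13 ± 0.63 (adjusted p = 0.0274). Ppbp had an effect of 4.36 (adjusted p = 0.142) and Gp5 of 3.68 (adjusted p = 0.128). That sum was 1121 on MDS and 952 on MDS/ML against 62.7 to 259 on the month 4 arrays, with 26 and 27 of 27 genes well above background on the moribund arrays and 20 to 25 on the others. Single genes did not all follow it: at least 2-fold from WT, 21 were higher and 3 lower on MDS, and 22 higher and 0 lower on MDS/ML. Zfpm1 and Gfi1b were lowest on CD45.1-R, which also had the lowest sum. The part of megakaryocyte-lineage RNA in the levels of Sox6, Zfpm1, Gfi1b and Nfe2 was not tested. For RUNX1S291fs, 23 of the 25 also had a positive effect, with a median of 1.12 and 0 past the threshold.

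**Figure D2:**
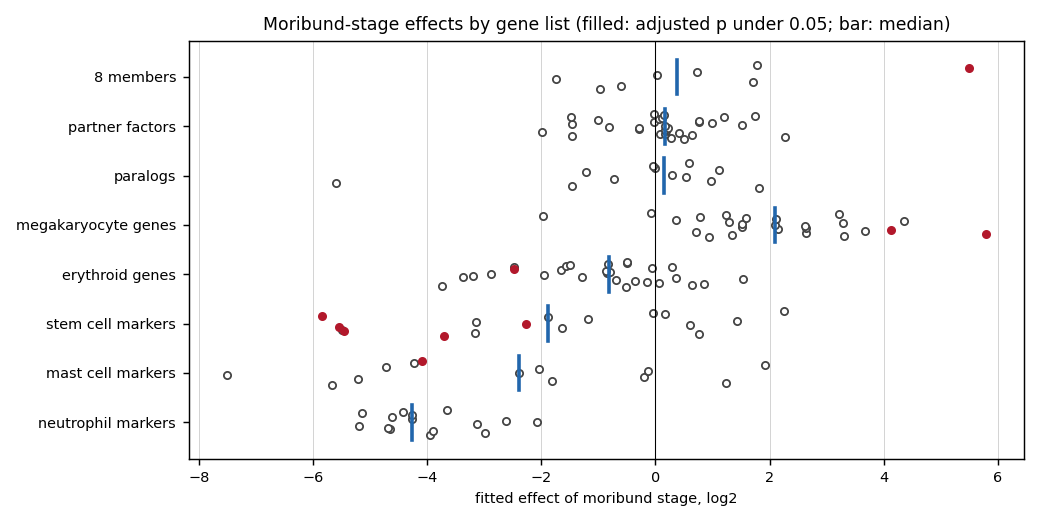
Fitted effect of moribund stage (x axis, log2) for each tested gene of the 8 members and of 7 fixed gene lists (rows); filled points passed a limma adjusted p of 0.05 and blue bars are list medians. Sox6 is the filled point of the members at 5.50, megakaryocyte genes have a median of 2.09 and erythroid genes of -0.81.

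Promoter sequence is shown for Sox6, Gfi1b and Zfpm1, which had their highest levels on the same arrays, and for Bcl11a, which had its lowest there. Each is the 250 bases before the RefSeq start of build GRCm38.p6, read on the strand of the gene, with matches to searched motifs in capitals. Searched on both strands were the letters GATA preceded by A or T and followed by A or G, the CACCC box bound by KLF factors, and the RUNX motif TGTGGT or TGCGGT. Of the 6 Sox6 starts, the one shown was chosen because it matches all searched motifs, and the arrays do not tell which start was used; it lies at chr7:115846141-115846390 on the minus strand. Gfi1b lies on the minus strand at chr2:28621983-28622232, Zfpm1 on the plus strand at chr8:122281891-122282140 and Bcl11a on the plus strand at chr11:24080445-24080694.
Sox6: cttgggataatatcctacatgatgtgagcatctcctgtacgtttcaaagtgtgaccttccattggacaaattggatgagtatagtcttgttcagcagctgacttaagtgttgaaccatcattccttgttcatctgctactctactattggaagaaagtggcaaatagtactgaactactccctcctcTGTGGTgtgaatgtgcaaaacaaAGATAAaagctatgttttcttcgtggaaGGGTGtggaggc
Gfi1b: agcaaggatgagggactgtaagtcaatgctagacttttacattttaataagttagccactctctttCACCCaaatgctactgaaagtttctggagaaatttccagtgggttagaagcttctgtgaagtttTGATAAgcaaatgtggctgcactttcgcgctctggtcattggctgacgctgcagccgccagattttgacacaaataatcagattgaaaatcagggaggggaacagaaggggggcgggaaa
Zfpm1: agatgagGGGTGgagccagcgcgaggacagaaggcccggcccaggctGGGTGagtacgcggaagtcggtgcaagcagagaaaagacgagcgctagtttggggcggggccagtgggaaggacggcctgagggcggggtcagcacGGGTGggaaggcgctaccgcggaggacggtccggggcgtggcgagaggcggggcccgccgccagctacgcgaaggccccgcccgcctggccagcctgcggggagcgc
Bcl11a: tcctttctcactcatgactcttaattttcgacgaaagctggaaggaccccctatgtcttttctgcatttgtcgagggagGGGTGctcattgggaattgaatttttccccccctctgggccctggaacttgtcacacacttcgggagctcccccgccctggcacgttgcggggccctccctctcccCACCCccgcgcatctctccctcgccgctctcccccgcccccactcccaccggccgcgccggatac

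The Gfi1b stretch holds 1 GATA match, beginning 120 bases before the start, and 1 CACCC match, while Zfpm1 holds 3 CACCC matches and Bcl11a 2, with no GATA or RUNX match in either. Over 32851 mouse promoters of the same length, 26.5% hold a GATA match, 52.0% a CACCC match and 18.6% a RUNX match. The 7 members with an entry have 12 promoters, 6 of them of Sox6, of which 3 hold a GATA match, 7 a CACCC match and 3 a RUNX match. The Sox6 promoter shown holds 1 match of each kind, as does that of Klf1, while 4 of the 6 Sox6 promoters hold none. A match is a string of letters and not a bound site.

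Klf1 read -2.53 on WT, -2.53 on Ezh2-deleted, -2.56 on RUNX1-mutant, -0.92 on double-mutant, -3.19 on MDS, -2.97 on MDS/ML, -2.55 on CD45.1-R and -3.21 on CD45.1-D. The double-mutant array stood apart from the other 7, which lie between -3.21 and -2.53. There Klf1 was 3.04-fold higher than on WT and on Ezh2-deleted, 3.12-fold higher than on RUNX1-mutant and 4.88-fold higher than in the CD45.1-D cells. The moribund arrays were 4.81-fold (MDS) and 4.13-fold (MDS/ML) lower than the double-mutant array. The stage effect of -1.74 ± 0.50 had a limma adjusted p of 0.164, and the product of both lesions had an effect of 1.40 ± 0.69 (adjusted p = 0.807), so the high double-mutant value was not past the threshold as a joint effect. It rests on 1 spot of 1 array.

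Red cell genes downstream of GATA1 and KLF1 had no such peak in their summed signal. Of 36 erythroid genes with a probe, 28 were tested, and for stage 22 had a negative effect with a median of -0.81. Rhd, which encodes a red cell membrane protein, fell by 2.47 and was the only one to pass (limma adjusted p = 0.0410). Alas2, the first enzyme of heme synthesis in red cells, had an effect of -3.73 (adjusted p = 0.450), and Hba-a1, an adult alpha globin, of -3.38 (adjusted p = 0.487). On MDS, Alas2 read -1.38, near the -1.07 of double-mutant and above the -3.74 of WT. Its levels on MDS/ML (-5.92) and CD45.1-D (-4.23) were not well above background. The summed signal was 411 on the double-mutant array, between the 158 of MDS/ML and the 665 of Ezh2-deleted. Other measures differed: the mean level of the 36 genes was highest on double-mutant (0.15), followed by Ezh2-deleted (0.10), and the median level was highest on WT (0.32). At least 2-fold from WT, 9 erythroid genes were higher and 1 lower on double-mutant, and 10 higher and 0 lower on Ezh2-deleted. The median differences from WT were 0.52 on double-mutant and 0.10 on Ezh2-deleted. Hba-a1 read 6.17 on Ezh2-deleted, 5.74 on RUNX1-mutant, 5.01 on double-mutant, 4.96 on CD45.1-R and 4.57 on MDS, but 1.76 on WT, 1.27 on CD45.1-D and 1.23 on MDS/ML. These 3 low arrays include 2 of the 3 wild-type ones, and the levels follow neither Klf1 nor a lesion. On the double-mutant array 33 of 36 erythroid genes were well above background, against 26 to 31 on the others. The part of red cell RNA in the Klf1 level was not tested.

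Bcl11a read 4.94 on WT, 4.80 on Ezh2-deleted, 3.80 on RUNX1-mutant, 3.65 on double-mutant, 2.35 on MDS, 3.15 on MDS/ML, 4.14 on CD45.1-R and 5.13 on CD45.1-D. The 4 arrays with RUNX1S291fs were all below the 4 without it, although the step between RUNX1-mutant and CD45.1-R, 0.34, was less than the wild-type SD of 0.52. It was the only member to separate carriers in this way, which 8.59% of all genes tested did, while 0 members separated the 4 Ezh2-deleted arrays from the rest (2.8% of genes). Bcl11a was 2.20-fold lower than WT on RUNX1-mutant, 2.44-fold lower on double-mutant, 6.03-fold lower on MDS and 3.46-fold lower on MDS/ML. Against CD45.1-D, the double-mutant level was 2.78-fold lower. The fitted effects were -1.02 ± 0.40 for RUNX1S291fs (limma adjusted p = 0.773) and -0.97 ± 0.49 for stage (adjusted p = 0.462), and neither passed. A second Bcl11a probe read 2.92 on RUNX1-mutant, 3.01 on double-mutant, 2.20 on MDS and 2.97 on MDS/ML, and 3.52 to 4.08 on the others, so it separated carriers but not the moribund arrays.

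The summed signal of B cell markers, whose lineage depends on BCL11A, was also lower on the carrier arrays. For 12 markers it was 5.91 to 20.0 on the 4 carrier arrays and 24.0 to 349 on the other 4, and that of 11 T and NK cell markers was 10.3 to 28.1 against 89.2 to 169. The median level of the B cell markers did not separate the arrays in this way, as it was -1.83 on MDS/ML and -3.06 on WT. Mast cell markers had sums of 134.5 to 442 on the carriers against 13.1 to 37.4. Their median level did not separate the arrays either, as it was -2.26 on MDS/ML and -1.69 on WT. The same held for the T and NK cell markers, with medians of -1.44 on MDS/ML and -2.27 on WT. Of 9 B cell markers tested, 8 had a negative RUNX1S291fs effect with a median of -4.14 and 0 past the threshold. Against WT alone, the median difference of the B cell markers measured was -0.06 on RUNX1-mutant, -0.58 on double-mutant and 5.73 on Ezh2-deleted. On MDS it was -1.98 and on MDS/ML -0.49. The fitted median is thus no measure of the difference between RUNX1-mutant and WT. The part of lymphoid or mast cell RNA in the Bcl11a level was not tested. Of the embryonic globins that BCL11A and SOX6 silence in adult red cells, Hbb-y was well above background on the double-mutant (-3.67) and MDS (-2.22) arrays alone, Hbb-bh1 on 3 arrays and Hba-x on 0.

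Gata1 read 2.93 on WT, 1.64 on Ezh2-deleted, 2.50 on RUNX1-mutant, 3.01 on double-mutant, 2.32 on MDS, 1.73 on MDS/ML, 1.67 on CD45.1-R and 2.65 on CD45.1-D. With the arrays sorted by level, every step between neighbours, 7 of 7, was smaller than the SD of the 3 wild-type arrays, 0.66. Small steps do not show that arrays further apart are alike. The highest array was 2.58-fold above the lowest, a log2 range of 1.37, against a range of 1.26 within the 3 wild-type arrays. The fitted effects were -0.26 ± 0.49 for Ezh2 deletion, 0.60 ± 0.49 for RUNX1S291fs and -0.60 ± 0.60 for stage, and none passed. Gata1 lies on the X chromosome, and 2 of its 3 lowest arrays, Ezh2-deleted and MDS/ML, are those with RNA of male cells. The part of sex in these levels was not tested.

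Gata2, which precedes Gata1 in stem cells and gives way to it during red cell maturation, read 3.58 on WT, 3.08 on Ezh2-deleted, 4.70 on RUNX1-mutant, 3.71 on double-mutant, 4.87 on MDS, 6.59 on MDS/ML, 2.53 on CD45.1-R and 4.13 on CD45.1-D. Its 3 highest arrays carried RUNX1S291fs, and none of these was among the 3 highest of Gata1. The stage effect on Gata2 was 1.82 ± 0.77 (limma adjusted p = 0.362).

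**Figure D3:**
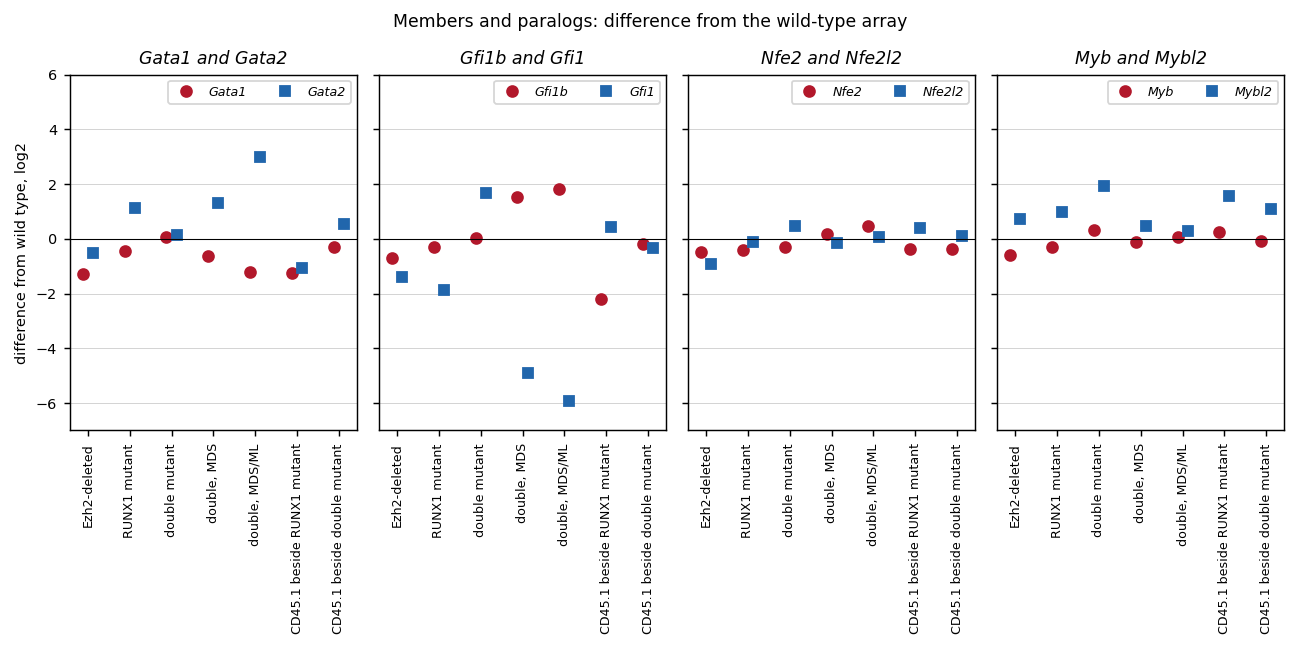
Difference from the wild-type array (y axis, log2) of 4 members (circles) and a paralog of each (squares) on the other 7 arrays (x axis), 1 value per array. Gfi1b is above the wild type and Gfi1 below it on the MDS and MDS/ML arrays, and Gata2 is above it and Gata1 below it there.

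Myb read 6.52 on WT, 5.93 on Ezh2-deleted, 6.23 on RUNX1-mutant, 6.84 on double-mutant, 6.41 on MDS, 6.58 on MDS/ML, 6.77 on CD45.1-R and 6.45 on CD45.1-D. Its whole range was 1.89-fold, and the moribund arrays lay inside the month 4 range. The fitted stage effect was 0.03 ± 0.43, and those of Ezh2 deletion and RUNX1S291fs were -0.14 ± 0.35 and 0.15 ± 0.35, all short of the threshold. Mybl2, a paralog tied to cell division, read 3.44 on WT, which was its lowest value, and 5.36 on double-mutant, its highest.

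For RUNX1S291fs 0 of the 8 members passed, where 2 genes (0.0148%) did and 806 had an unadjusted p under 0.05 in limma. For Ezh2 deletion 0 members passed and 0% of genes, with 321 unadjusted and a smallest adjusted p of 0.697. For the product of both lesions 0 members passed and 0% of genes, with 887 unadjusted. At an unadjusted limma p under 0.05 there were 3 members for stage (13.7% of all genes tested) and 2 for RUNX1S291fs (5.95%). There was 1 for Ezh2 deletion (2.37%) and 0 for the product (6.55%).

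**Figure D4:**
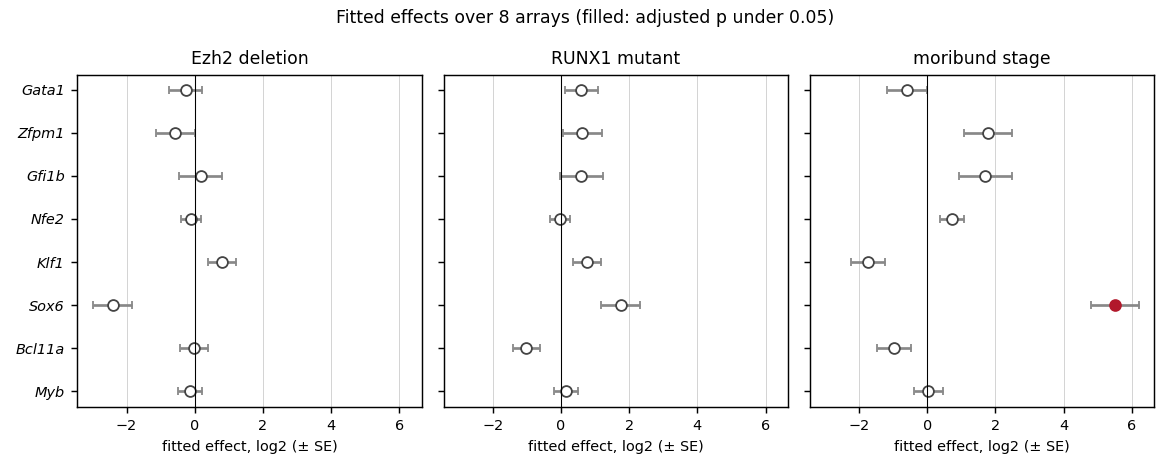
Fitted limma effect (x axis, log2; bars are ± 1 SE) of Ezh2 deletion, RUNX1S291fs and moribund stage on each member (rows), over 8 arrays. The filled point, Sox6 for stage at 5.50, is the only one past an adjusted p of 0.05.

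Single arrays were also compared by the number of members at least 2-fold apart, without a test. Against WT, 1 member was apart on Ezh2-deleted (Gata1, where 11.7% of all genes measured were), 2 on RUNX1-mutant (Bcl11a and Sox6; 14.3%) and 2 on double-mutant (Bcl11a and Klf1; 18.6%). The moribund arrays had 4 on MDS (Bcl11a, Gfi1b, Sox6 and Zfpm1; 31.4%) and the same 4 with Gata1 on MDS/ML (20.7%). Among wild-type arrays, 3 members were apart between CD45.1-R and WT (Gata1, Gfi1b and Zfpm1; 18.3%), 0 between CD45.1-D and WT (7.23%) and 2 between the 2 CD45.1 arrays (Gfi1b and Zfpm1; 16.6%). So Gfi1b and Zfpm1 differed at this size between the 2 CD45.1 arrays, where Gata1 was 1.97-fold apart. All but the last of these comparisons share the WT array.

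Adding a lesion left the double-mutant array apart from Ezh2-deleted in 3 members (Bcl11a, Gata1 and Klf1; 22.1%) and from RUNX1-mutant in 3 (Klf1, Sox6 and Zfpm1; 16.6%). From double-mutant to MDS 5 members were apart (Bcl11a, Gfi1b, Klf1, Sox6 and Zfpm1; 31.2%), and to MDS/ML also 5, with Gata1 in place of Bcl11a (25.1%). Between MDS/ML and MDS 0 members were 2-fold apart, against 20.7% of genes. The labels match mutant and competitor cells by kind of recipient, without stating that they came from the same mice. RUNX1-mutant cells differed from CD45.1-R cells in 3 members (Gfi1b, Sox6 and Zfpm1; 21.5%), all higher, and double-mutant cells from CD45.1-D cells in 2 (Klf1 higher and Bcl11a lower; 19.7%). Against WT, the RUNX1-mutant array was 1.22-fold lower for Gfi1b, 3.39-fold higher for Sox6 and 1.82-fold higher for Zfpm1. Gata1, Nfe2 and Myb were under 2-fold apart in both of these competitor comparisons. A limma fit of mutant against competitor cells over these 4 arrays, with the recipient as a block, was added after the data were seen and leaves 1 residual degree of freedom. In it 0 members and 0% of genes passed, with 565 genes but 0 members at an unadjusted p under 0.05.

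Partner factors, listed because they act with GATA1, TAL1, NF-E2, KLF1, GFI1B or MYB or on the same genes, had stage effects of either sign. All 30 listed partners were well above background on every array and 20 had a positive effect, with a median of 0.17 and 0 past the threshold. Cbfa2t3, a corepressor of the GATA1 and TAL1 complex, had an effect of 2.27 ± 0.46 (limma adjusted p = 0.0689), Ets1 of -1.98 ± 0.52 (adjusted p = 0.132), Tal1 of 1.74 ± 0.45 (adjusted p = 0.128) and Ldb1, which bridges the complex, of 1.52 ± 0.54 (adjusted p = 0.264). The other 10 partners had a negative effect, among them Ets1 and also Lmo2, with -1.46 ± 0.36 (limma adjusted p = 0.110). Lmo2 read 4.46 on MDS and 5.03 on MDS/ML, below its month 4 range of 6.30 to 6.69, so the partners of this complex did not all rise. The stem cell markers had a median stage effect of -1.89, with 5 of 17 past the threshold, all lower: the effects were -3.70 on Cd34, -5.46 on Flt3, -5.85 on Procr, -5.54 on Hoxb5 and -2.26 on Ly6a. Their summed signal was 124 on MDS and 186 on MDS/ML against 272 to 487 at month 4, and its part in the members' levels was not tested.

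Across the 8 arrays Zfpm1 and Sox6 had a Pearson r of 0.93, Zfpm1 and Gfi1b of 0.89, Gfi1b and Sox6 of 0.83, and Nfe2 and Gfi1b of 0.81. Over the 6 month 4 arrays alone these were 0.82, 0.69, 0.40 and 0.32. For Nfe2 and Sox6 the r was 0.83 over all arrays and 0.22 over month 4, and for Zfpm1 and Nfe2 it was 0.74 and 0.01. The pairs with Nfe2 in particular thus rest on the moribund arrays. All these r values describe levels that share array and scaling, and Sox6 includes 3 dim values. Over 11298 other genes well above background on all arrays, the 3 with the course most like Zfpm1 were Ccser1 (r = 0.99), Septin8 (0.99) and Tspyl1 (0.98). For Gfi1b they were Prmt2, Castor2 and Pdzk1ip1 (0.98, 0.98 and 0.97), and for Nfe2 Fam76b, Zfp456 and Atp2c1 (0.98, 0.98 and 0.97). For Bcl11a they were Slc12a2, Agpat4 and Suclg2 (0.99, 0.98 and 0.98), and for Myb Med17, Ap5b1 and Armc8 (0.99, 0.98 and 0.98). Klf1 was most like Ltb4r1, Slc35f6 and Rnf224 (0.95, 0.94 and 0.94), and Gata1 was least well matched, by Naglu, Tbc1d4 and Zic1 (0.91, 0.91 and 0.89). Each r is over 8 arrays.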

How the data were processed

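One-colour Agilent arrays of 8 samples were analysed. Per the labels' protocols, sorted cells gave total RNA that was amplified and labelled with Cy3, and per the file headers Agilent Feature Extraction 10.7.1.1 wrote the processed intensity, corrected for background and spatial trend within each array. The deposited series table holds the same intensity divided by 1 factor per array, with a 75th percentile near 1.00 and no log or centring. Here, log2 processed signal minus the 75th percentile over non-control probes was computed from the deposited intensity. Of 55681 probes, 27235 were named through transcript accessions in RefSeq (GRCm38.p6, names only), and a gene with several probes was read from its brightest one on average. Genes needed to be well above background on 3 or more arrays, and the 13548 that were so were fitted with limma 3.58.1 in R 4.3.3 (4 residual and 3.12 prior degrees of freedom), and p-values were adjusted by Benjamini-Hochberg with a threshold of 0.05. As each group has 1 sample, no spread within a group could be estimated. The spread behind the p-values comes from the 2 moribund arrays, the 3 wild-type arrays and departures from the additive model. Pairs of arrays were compared for genes that either array measured above background; a dim value was replaced by the smallest signal that counts as above background on that array, which makes the difference a bound ("at least"). The likeness rule ranks Pearson r over genes well above background on all arrays, for members so on at least 6 arrays, and names 3 per member. Of each list, the genes past the threshold and up to 4 of largest effect may be named, as may paralogs and partner factors of a member with their levels. The lists are 12, of 205 genes, 201 with a probe. Members and lists were chosen with earlier results of these data known, and the counts of levels that do not overlap were added after values were seen. The fit was tested on simulated data. Arrays came from 3 slides: WT, double-mutant and MDS on slide 1, Ezh2-deleted, RUNX1-mutant, CD45.1-R and CD45.1-D on slide 2, and MDS/ML on slide 3. Alternatives covered scaling, background correction (normexp on median signal, offset 50), probe choice, filters, model terms and leaving out each array. Promoters came from RefSeq.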

Additional observations from a re-analysis of the deposited data

How the results depend on the processing

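Each group has 1 array, and no pairing by mouse was possible because the labels match mutant and competitor cells by kind of recipient alone. With that recipient as a block 0 genes and 0 members passed. Of 20 settings, 1 of them added after the data were seen (each dim value raised to the detection bound of its array, with 218 genes past the threshold for stage), those that fit a stage term left its sign unchanged for 6 of 8 members; the exceptions were Gata1 and Myb. The alternative scalings moved the median of all genes by -3.05 to -3.45 (percentile over probes bright on all arrays) and by 0.32 to 0.62 (normexp) on every array, and effects are differences between arrays. The count of genes past the threshold for RUNX1S291fs was 2; it was 5 with quantile normalization, 4 for month 4 arrays alone, 9 with no stage term, 1 with normexp or the mean over probes, and 0 with the percentile over bright probes, the filter on all 8 arrays, no filter, slide as a block or the product term, and 0 to 10 leaving out each array. For stage it was 250; it was 152 with the filter on all 8 arrays, 150 with no filter, 74 with slide as a block, and 0 to 381 leaving out each array, with 0 without the double-mutant array. Members past it for stage were 0 with quantile normalization or slide as a block, 0 with the filter on all 8 arrays, which removes Sox6, and 0 to 1 leaving out each array.

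Counts of members at least 2-fold apart changed as follows. Ezh2-deleted against WT gave 2 with measured values in place of bounds and 4 at 1.5-fold, where 26.8% of all genes measured were apart. At 1.5-fold, CD45.1-D against WT gave 1 (19.8% of genes), double-mutant against Ezh2-deleted 5 (43.0%), MDS/ML against MDS 4 (42.7%), double-mutant against CD45.1-D 4 (40.1%) and CD45.1-D against CD45.1-R 5 (37.9%). MDS/ML against MDS gave 1 with quantile normalization or normexp. CD45.1-D against CD45.1-R gave 4 with quantile normalization, the percentile over bright probes or normexp. For the counts with other scalings or with measured values no share of all genes is given here. They are therefore not set against a background.

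Signs changed for effects that were small and not past the threshold, and the cause was not tested. For Ezh2 deletion, Bcl11a was 0.00058 with quantile normalization, 0.019 with the percentile over bright probes, 0.0082 with normexp and 0.064 with the product term, and with no stage term Zfpm1 was 0.030 and Nfe2 0.14. For RUNX1S291fs, Nfe2 was 0.21 with no stage term and Myb -0.35 with the product term. For stage, Myb was -0.20 with slide as a block and -0.35 with the product term. Leaving out each array, the Ezh2 deletion effect ran from -0.78 to 0.51 for Gata1, -0.24 to 0.10 for Nfe2, -0.21 to 0.41 for Gfi1b, -0.20 to 0.085 for Bcl11a and -0.65 to 0.62 for Myb. The RUNX1S291fs effect ran from -0.21 to 1.19 for Zfpm1, -0.17 to 0.17 for Nfe2 and -0.35 to 0.91 for Myb, and the stage effect from -0.99 to 0.30 for Gata1 and -0.35 to 0.92 for Myb. Signal over background limits Sox6 most, since 3 of its 8 values are bounds.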
